A study of Solanum lycopersicum with 18 samples.

Results

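The genes of jasmonate synthesis and signalling described here are 16 of the 23348 genes in a deposited tomato leaf expression table. The rule that picks them uses names and no expression values: their symbol in that table had to match lipoxygenase (LOX), allene oxide synthase (AOS), allene oxide cyclase (AOC), oxophytodienoate reductase (OPR), COI1, MYC2, JA2 or JA2L, or a name starting JAZ or JAR with a number. The match gave 6 LOX genes, 2 AOS genes, 1 AOC gene, 3 OPR genes, Coi1, MYC2, JA2 and JA2L. It gave 0 rows for JAZ and 0 for JAR, so the repressors that the label of this gene set names are not among its members. Of the 3 genes of these kinds that a RefSeq table names under other symbols, JAZ2, SLJAZ3 and JAR1, the values are given beside the members, and they were added after the table's names had been read.

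Leaves of 2 tomato materials were sequenced, Micro-TOM-EX (EX) and Micro-TOM (MT), a dwarf laboratory cultivar, each at 0, 4 and 12 h with 3 libraries per group and 18 in all. Both grew in soil in a greenhouse with 16 h of light, and what the suffix EX stands for is not stated. The labels are at odds over the treatment: the growth text puts both materials in the cold for 0, 4 or 12 h, while the stress field marks all EX libraries as cold and all MT libraries as control, those of 0 h too. The hours of treatment may also move with the time of day. Since no label says that replicate libraries are separate plants, p-values measure the spread between libraries, which may be technical.

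Jasmonates are lipid hormones that plants make from chloroplast fatty acids when they are wounded or eaten, and in part under other stress. A 13-lipoxygenase adds oxygen to linolenic acid, AOS and AOC turn the product into 12-oxophytodienoic acid (OPDA), and OPR3 reduces OPDA in the peroxisome before beta-oxidation shortens it to jasmonic acid. Once JAR1 has joined jasmonic acid to isoleucine, the conjugate binds the F-box protein COI1, JAZ repressors are degraded, and MYC2 is freed to switch on genes of defence and of jasmonate synthesis itself.

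The unit is FPKM, in which fragments are divided by the length of the transcript and by the size of the library, so levels can be set side by side between genes of unequal length. Library totals ran from 758518 to 833908 FPKM, and no fragment counts are in the table, so no counting error is given. Differences are of log2(FPKM + 1), which understates the change of weakly expressed genes, and a gene was called where limma's Benjamini-Hochberg adjusted p over all 17870 genes tested was under 0.05. A gene was tested if it averaged at least 1 FPKM in at least 1 group. On the second principal component of all tested genes (18.4% of the variance) library 1 of MT was an outlier at 0 h (score 61.9) and at 4 h (52.6), where the other libraries lay between -40.7 and 14.3, and results that rest on this outlying MT pair are given without it too. In each library 21 leaf mesophyll genes summed to 47420 to 111100 FPKM, the 5 fruit ripening genes to 9.84 to 81.05 FPKM, and 3 trichome genes to 20.73 to 54.57 FPKM. The fruit genes ACS2, ACS4 and MADS-RIN, the root gene PT4 and the anther genes LAT52 and LAT59 were under 1 FPKM in every library.

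Of the 16 members, 15 were tested. LOXB, a lipoxygenase known from fruit, was the exception, above 0 in 1 library and at most 0.02 FPKM. In leaves the pathway's single AOC gene had the highest mean level over the 18 libraries, 118.9 FPKM (chromosome 2, 48531877 to 48533164, plus strand; the genome build of the table's coordinates is not named). Next came loxD with 98.3 FPKM (chromosome 3, 70218709 to 70223043, plus strand), OPR1 with 89.2 FPKM (chromosome 10, 65120844 to 65122295, minus strand) and loxF with 87.6 FPKM (chromosome 1, 1128848 to 1139567, minus strand). Intermediate means were those of opr3 at 59.8 FPKM (chromosome 7, 2549366 to 2553732, plus strand), aos at 54.4 FPKM (chromosome 4, 64093631 to 64095474, minus strand) and MYC2 at 48.4 FPKM (chromosome 8, 60869757 to 60872241, plus strand). AOS2 averaged 33.4 FPKM (chromosome 11, 54428915 to 54430616, minus strand), Coi1 24.7 FPKM (chromosome 5, 62822312 to 62828102, minus strand) and JA2L 16.1 FPKM (chromosome 7, 65883840 to 65885421, plus strand). Because the ranges of AOC, loxD, opr3 and aos over the libraries are wide and overlap one another, their order holds for the means and not for each library.

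The remaining members were weakly expressed. TomloxE averaged 6.19 FPKM (chromosome 1, 89468244 to 89483049, plus strand), opr2 1.82 FPKM (chromosome 1, 91999739 to 92003101, minus strand), TomloxC 1.79 FPKM (chromosome 1, 1113897 to 1123785, plus strand) and LOX1.1 1.45 FPKM (chromosome 8, 3516210 to 3522689, minus strand). The LOX genes of chromosome 1 form 2 pairs of neighbours: 5062 bases lie between TomloxC and loxF, and 7835 bases between TomloxE and LOXB (chromosome 1, 89490885 to 89494591, minus strand). Within each pair 1 gene was the more expressed in all 18 libraries, loxF at 62.8 to 117.5 FPKM against TomloxC at 0.46 to 4.78 FPKM, and TomloxE at 2.89 to 11.9 FPKM against LOXB. Reads shared by such related genes could have been split between them or lost in the authors' counting. The row of JA2 (chromosome 12, 4461538 to 4464664, minus strand) lies wholly inside LOC101248079, a gene on the same strand with 166.4 to 1514 FPKM, so its values are uncertain: they were above 0 in 4 of 18 libraries, with 31.0 FPKM in library 2 of EX at 12 h and 30.7 FPKM in library 1 of MT at 4 h.

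**Figure D1:**
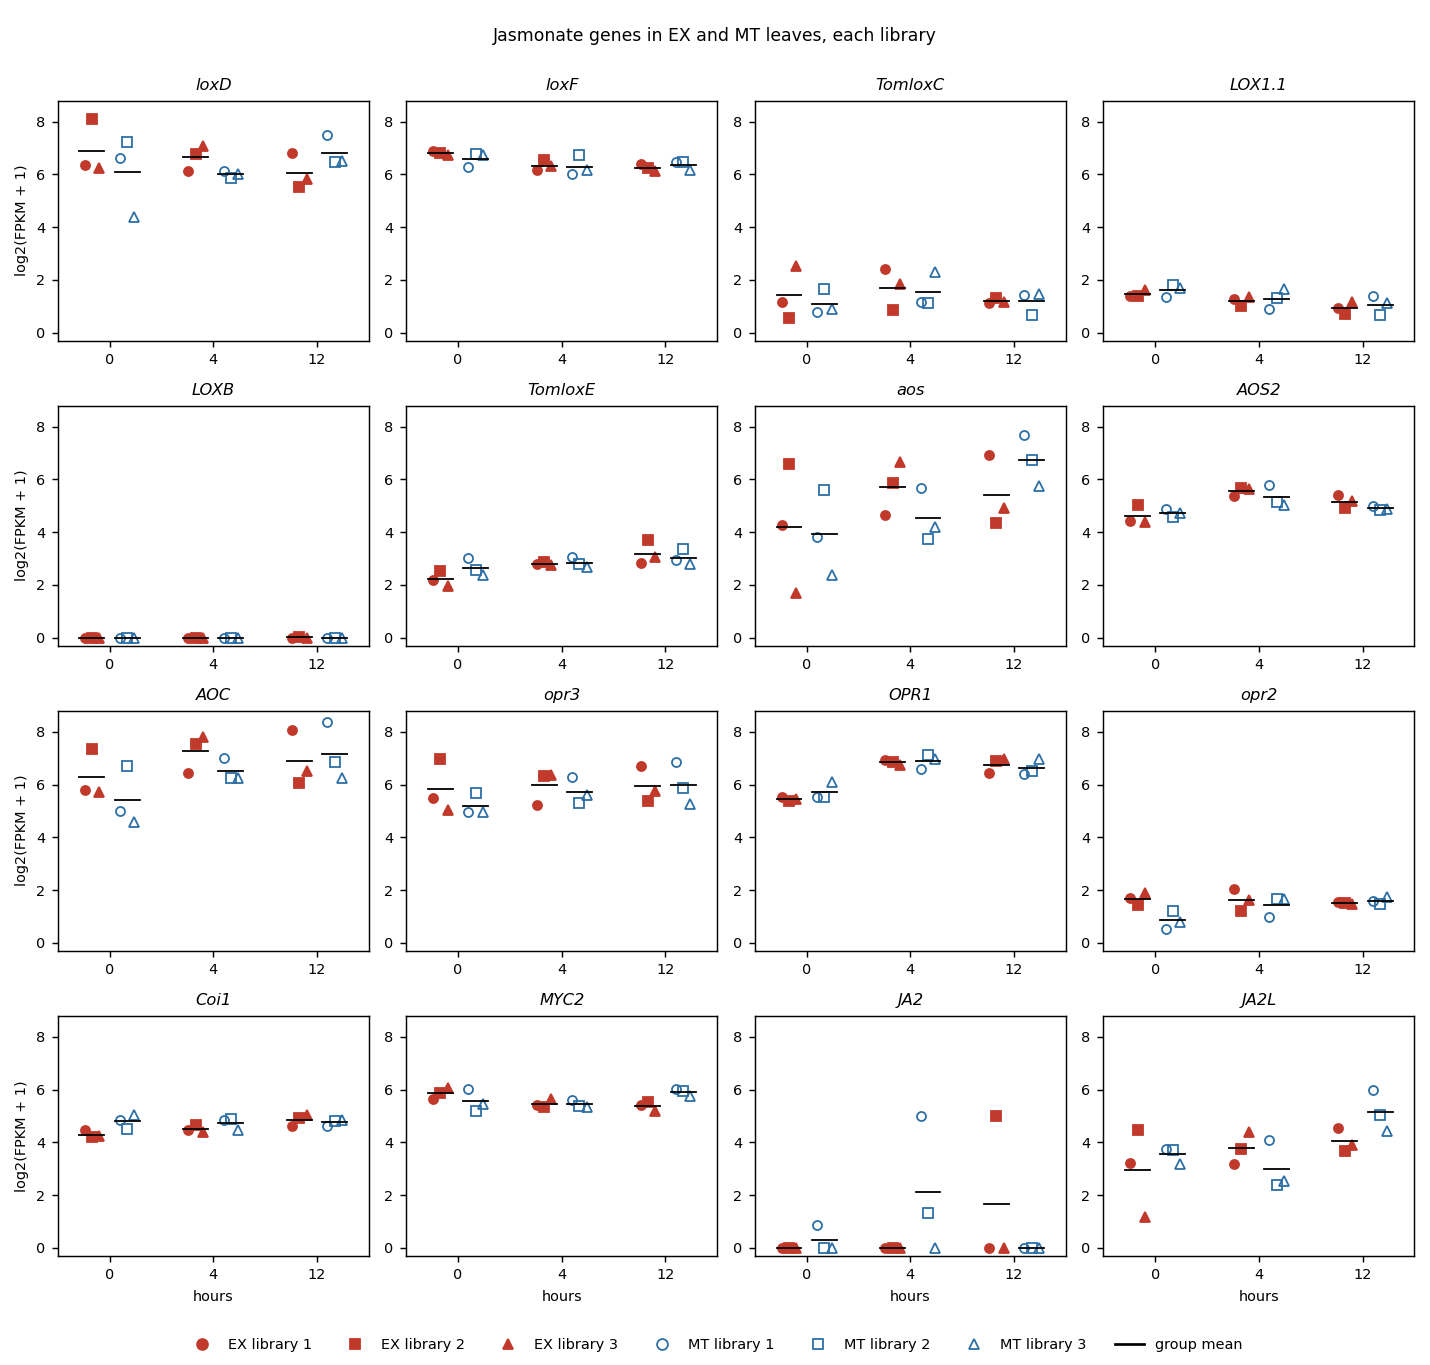
The 16 jasmonate genes in each library as log2(FPKM + 1), by hours (0, 4, 12), with EX libraries as filled red symbols left of MT libraries as open blue symbols, and black bars for the means of 3 libraries. OPR1 is higher at 4 and 12 h than at 0 h in every library of both lines, while aos, AOC and loxD scatter widely within each group.

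The clearest change of the pathway over time was in OPR1, and it was seen in both lines. Tomato OPR1 encodes an OPDA reductase that, unlike OPR3, does not accept the OPDA isomer of jasmonate synthesis. In EX, OPR1 had 44.9, 40.5 and 43.3 FPKM at 0 h, 120.4, 115 and 106 FPKM at 4 h, and 84.8, 116 and 124 FPKM at 12 h. In MT, it had 45.5, 44.8 and 67.2 FPKM at 0 h, 94.2, 137 and 124 FPKM at 4 h, and 84.0, 91.4 and 124 FPKM at 12 h. Every library of 4 and 12 h lay above every library of 0 h in its own line. In EX the mean was 114 ± 7.21 FPKM at 4 h, against 42.9 ± 2.21 FPKM at 0 h (SD, n = 3 each), a log2 difference of 1.39 ± 0.20 (SE; limma, adjusted p = 0.000236). At 12 h in EX the mean was 108 ± 20.8 FPKM, a difference from 0 h of 1.30 ± 0.20 (SE; limma, adjusted p = 0.00035). In MT the gene rose by 1.17 ± 0.20 (SE; limma, adjusted p = 0.000922) at 4 h and by 0.92 ± 0.20 (SE; limma, adjusted p = 0.00428) at 12 h. Those 4 calls held when any 1 library was left out, and without the outlying MT pair the MT differences were 1.23 (adjusted p = 0.00361) and 0.83 (adjusted p = 0.0133). Over all alternatives the adjusted p of OPR1 in MT was 0.000494 to 0.0511 at 4 h and 0.00196 to 0.0526 at 12 h, with the highest values when limma was run on just the 6 libraries compared. In leaf samples a change in the share of cells that express a gene and a change in its RNA per cell cannot be told apart.

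Of the other OPR genes, opr3 was not called over time and opr2 was called at 12 h in MT. For opr3, the reductase of jasmonate synthesis, EX libraries had 44.5, 126 and 31.8 FPKM at 0 h, 36.8, 78.8 and 81.4 FPKM at 4 h, and 103, 40.0 and 52.4 FPKM at 12 h. In MT, opr3 had 29.7, 50.5 and 29.9 FPKM at 0 h, 77.5, 38.0 and 48.1 FPKM at 4 h, and 114, 57.7 and 37.6 FPKM at 12 h. The groups of opr3 overlapped in each of the 4 comparisons with 0 h, and it was not called in any, with log2 differences of 0.13 (adjusted p = 0.926) and 0.09 (adjusted p = 0.932) in EX and 0.54 (adjusted p = 0.546) and 0.80 (adjusted p = 0.289) in MT by limma. For opr2, a reductase related to OPR1, values were low, with 2.24, 1.73 and 2.69 FPKM at 0 h, 3.16, 1.3 and 2.1 FPKM at 4 h, and 1.93, 1.81 and 1.77 FPKM at 12 h in EX. In MT, opr2 had 0.450, 1.32 and 0.740 FPKM at 0 h, 0.970, 2.19 and 2.2 FPKM at 4 h, and 1.96, 1.79 and 2.32 FPKM at 12 h. In MT the 12 h libraries lay above all of 0 h, 2.02 ± 0.271 against 0.837 ± 0.443 FPKM (SD, n = 3 each), and opr2 rose by 0.74 ± 0.24 (SE; limma, adjusted p = 0.0368). That call was lost when library 1 or 3 of the 0 h group (adjusted p = 0.146 and 0.0912) or library 1, 2 or 3 of the 12 h group (0.0843, 0.0673 and 0.103) was left out. Without the outlying MT pair the adjusted p was 0.0836, and it spanned 0.0136 to 0.146 over all alternatives. At 4 h in MT, opr2 was called without library 2 of 0 h (0.78, adjusted p = 0.0452) or library 1 of 4 h (0.83, adjusted p = 0.0341).

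Between the 2 AOS genes, AOS2 changed with time in EX and aos did not pass the test. Both encode the enzyme that commits the lipoxygenase product to the jasmonate branch. AOS2 had 20.8, 31.3 and 20.1 FPKM at 0 h, 40.2, 50.0 and 49.2 FPKM at 4 h, and 41.5, 29.1 and 34.98 FPKM at 12 h in EX. In MT, AOS2 had 28.1, 23.1 and 25.4 FPKM at 0 h, 53.7, 34.4 and 32.1 FPKM at 4 h, and 30.6, 27.9 and 28.6 FPKM at 12 h. At 4 h its libraries lay above all those of 0 h in both lines, and at 12 h they did so in neither. In EX, AOS2 was at 46.5 ± 5.43 FPKM at 4 h, against 24.1 ± 6.32 FPKM at 0 h (SD, n = 3 each), and rose by 0.94 ± 0.20 (SE; limma, adjusted p = 0.00569). This call held without any 1 library, with adjusted p of 0.00192 to 0.035 over all alternatives. The same comparison in MT gave 0.60 ± 0.20 (SE; limma, adjusted p = 0.0578), or 0.73 (adjusted p = 0.0408) without library 3 of MT at 4 h, and the 12 h differences were 0.55 (adjusted p = 0.0753) in EX and 0.18 (adjusted p = 0.551) in MT. At 12 h in EX, AOS2 was called without library 2 of EX at 0 h (0.74, adjusted p = 0.019) and without the outlying MT pair (0.55, adjusted p = 0.0319).

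The other AOS gene, aos, ranged far more. In EX it had 18.6, 95.5 and 2.27 FPKM at 0 h, 24.3, 56.7 and 101 FPKM at 4 h, and 119, 19.5 and 29.5 FPKM at 12 h. In MT, aos had 13.3, 47.8 and 4.18 FPKM at 0 h, 50.5, 12.2 and 17.3 FPKM at 4 h, and 208, 107 and 53.6 FPKM at 12 h. Within EX at 0 h the highest library was 42.1 times the lowest, so that differences of 1.53 ± 1.09 (SE; limma, adjusted p = 0.444) at 4 h and 1.201 ± 1.09 (SE; limma, adjusted p = 0.498) at 12 h were not beyond the spread. In MT the 3 libraries of 12 h lay above all those of 0 h and of 4 h, with 122.6 ± 78.2 FPKM at 12 h, against 21.7 ± 22.99 FPKM at 0 h (SD, n = 3 each). That difference of 2.80 ± 1.09 (SE; limma, adjusted p = 0.0786) did not pass either.

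AOC, which closes the ring of OPDA, had the same kind of scatter. AOC libraries had 54.9, 161 and 52.2 FPKM at 0 h, 86.1, 183 and 222 FPKM at 4 h, and 264, 66.4 and 91.4 FPKM at 12 h in EX. In MT, AOC had 30.6, 104 and 23.2 FPKM at 0 h, 128, 75.3 and 74.8 FPKM at 4 h, and 333, 116 and 75.4 FPKM at 12 h. Groups overlapped in all 4 comparisons with 0 h, and the log2 differences were 0.96 (adjusted p = 0.436) and 0.59 (adjusted p = 0.602) in EX, and 1.07 (adjusted p = 0.322) and 1.74 (adjusted p = 0.0777) in MT. Without library 2 of MT at 0 h, the one with the highest AOC and aos of its group, both genes were called higher at 12 h than at 0 h in MT, aos by 3.64 (adjusted p = 0.0307) and AOC by 2.38 (adjusted p = 0.0183). The calls over all genes in this comparison ran from 1488 to 5136 across the alternatives, against 3786 in the main fit.

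Among the lipoxygenases, the 9-lipoxygenase TomloxE was called, and the 13-lipoxygenases that feed jasmonate synthesis were not. TomloxE, of the class that oxygenates fatty acids at another carbon and leads to other oxylipins, had 3.6, 4.75 and 2.89 FPKM at 0 h, 5.96, 6.31 and 5.69 FPKM at 4 h, and 6.14, 11.9 and 7.26 FPKM at 12 h in EX. In MT, TomloxE had 7.15, 4.86 and 4.15 FPKM at 0 h, 7.27, 5.97 and 5.43 FPKM at 4 h, and 6.68, 9.42 and 5.87 FPKM at 12 h. Its EX libraries of 4 h and of 12 h all lay above those of 0 h, while the MT groups overlapped. At 12 h in EX it was at 8.45 ± 3.08 FPKM, against 3.75 ± 0.939 FPKM at 0 h (SD, n = 3 each), and rose by 0.96 ± 0.23 (SE; limma, adjusted p = 0.0103). Without library 3 of EX at 0 h, its lowest library, the difference was 0.83 (adjusted p = 0.0531), the highest p over all alternatives, the lowest being 0.00572. A transcript model added by the authors overlaps TomloxE by 1323 bases on chromosome 1 and had 0.13 to 0.9 FPKM.

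The chloroplast 13-lipoxygenase loxD, which supplies wound-induced jasmonate in tomato, had 80.5, 276 and 74.8 FPKM at 0 h, 68.4, 107 and 136 FPKM at 4 h, and 110.5, 44.6 and 56.2 FPKM at 12 h in EX. In MT, loxD had 97.8, 149 and 20.2 FPKM at 0 h, 69.1, 56.8 and 64.4 FPKM at 4 h, and 179, 88.0 and 89.9 FPKM at 12 h. Its groups overlapped in all 4 comparisons with 0 h, and none was called, with log2 differences of -0.25 (adjusted p = 0.879) and -0.85 (adjusted p = 0.388) in EX and -0.08 (adjusted p = 0.952) and 0.74 (adjusted p = 0.428) in MT. The other abundant 13-lipoxygenase, loxF, had 118, 111 and 104 FPKM at 0 h, 70.7, 91.3 and 78.0 FPKM at 4 h, and 84.0, 74.3 and 69.2 FPKM at 12 h in EX. In MT, loxF had 76.9, 109 and 105 FPKM at 0 h, 62.8, 105 and 70.0 FPKM at 4 h, and 88.3, 87.4 and 71.3 FPKM at 12 h. In EX every loxF library of 4 and 12 h lay below every library of 0 h, yet the differences of -0.48 ± 0.18 (SE; limma, adjusted p = 0.12) at 4 h and -0.55 ± 0.18 (SE; limma, adjusted p = 0.0529) at 12 h did not pass. In 4 alternatives loxF was called lower at 12 h in EX, with adjusted p of 0.0481 after median-of-ratios scaling, 0.0409 with the replicate block, 0.0198 without the outlying MT pair and 0.0292 when just the 6 libraries compared entered the fit, which also gave 0.0457 at 4 h. In MT at 4 h it was called lower without library 2 of that group (-0.53, adjusted p = 0.0476). TomloxC, a 13-lipoxygenase known for fruit volatiles, and the 9-lipoxygenase LOX1.1 stayed at 0.46 to 4.78 and 0.57 to 2.47 FPKM and were called in no comparison, though LOX1.1 was lower at 12 h in MT without the outlying MT pair (-0.70, adjusted p = 0.0422). The LOX1.1 libraries of EX at 12 h lay below those of 0 h, with a difference of -0.53 (adjusted p = 0.12).

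On the signalling side, the receptor gene Coi1 rose in EX. Coi1 had 21.1, 17.2 and 17.8 FPKM at 0 h, 21.0, 24.1 and 19.8 FPKM at 4 h, and 23.9, 29.5 and 31.6 FPKM at 12 h in EX. In MT, Coi1 had 28.0, 21.6 and 32.2 FPKM at 0 h, 27.6, 28.8 and 21.4 FPKM at 4 h, and 23.5, 27.2 and 27.7 FPKM at 12 h. Every EX library of 12 h lay above those of 0 h, and the MT groups overlapped. Coi1 was at 28.3 ± 3.99 FPKM in EX at 12 h, against 18.7 ± 2.097 FPKM at 0 h (SD, n = 3 each), a rise of 0.57 ± 0.16 (SE; limma, adjusted p = 0.0241). The call was lost without library 2 or 3 of EX at 0 h (adjusted p = 0.065 and 0.0808) and without library 2 or 3 of EX at 12 h (0.0719 and 0.109), and its adjusted p was 0.0194 to 0.109 over all alternatives.

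MYC2, the bHLH factor that acts downstream of Coi1, had 49.5, 58.2 and 65.6 FPKM at 0 h, 41.4, 39.4 and 49.2 FPKM at 4 h, and 41.4, 44.7 and 35.2 FPKM at 12 h in EX. In MT, MYC2 had 63.6, 35.7 and 42.8 FPKM at 0 h, 47.6, 40.1 and 39.7 FPKM at 4 h, and 64.0, 60.2 and 52.9 FPKM at 12 h. In EX its 4 h and 12 h libraries lay below all those of 0 h, with differences of -0.40 ± 0.18 (SE; limma, adjusted p = 0.187) and -0.50 ± 0.18 (SE; limma, adjusted p = 0.0719) that did not pass. At 12 h MYC2 was called lower in EX after median-of-ratios scaling (-0.55, adjusted p = 0.039) and without the outlying MT pair (-0.50, adjusted p = 0.0177). In MT the 12 h libraries lay above those of 4 h, and the difference from 0 h was 0.35 ± 0.18 (SE; limma, adjusted p = 0.185), or 0.58 (adjusted p = 0.0253) without library 1 of MT at 0 h. JA2L, a NAC factor that acts under jasmonate in stomatal guard cells, had 8.22, 20.9 and 1.25 FPKM at 0 h, 8.15, 12.4 and 19.8 FPKM at 4 h, and 22.4, 11.9 and 14.0 FPKM at 12 h in EX. In MT, JA2L had 12.4, 12.1 and 8.04 FPKM at 0 h, 16.2, 4.22 and 4.79 FPKM at 4 h, and 61.7, 31.7 and 20.6 FPKM at 12 h. The 3 MT libraries of 12 h lay above all MT libraries of 0 h and 4 h, and the difference from 0 h was 1.60 ± 0.66 (SE; limma, adjusted p = 0.0975), which missed the threshold.

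Counted together, 1 to 3 of the 15 tested members were called in each comparison with 0 h, as higher in the main fit. In EX, 2 of the 15 members tested were higher at 4 h than at 0 h and 0 were lower, where 11.3% of all tested genes were called in either direction, 6.3% as higher and 4.99% as lower. At 12 h in EX 3 members were higher and 0 lower, against a background of 16.6% in either direction, 10.1% higher and 6.54% lower. For MT the counts were 1 higher and 0 lower at 4 h, with a background of 14.2% in either direction, 6.73% higher and 7.43% lower. At 12 h in MT 2 were higher and 0 lower, with a background of 21.2% in either direction, 8% higher and 13.2% lower. These counts rest on 1 to 3 genes each and are not read as a result about the members. Counted in either direction, the share of members lies near that of all genes in EX and below it in MT. Counted as higher alone, it is near that of all genes in MT at 4 h and above it in the other comparisons. In some alternatives MYC2 and loxF were called lower in EX at 12 h. The comparisons within a line share their 0 h libraries. The median log2 difference of the 15 members was 0.2 and 0.54 in EX at 4 and 12 h, where that of all tested genes was 0.016 and 0.035. In MT it was 0.43 and 0.39, where that of all tested genes was -0.009 and -0.064. The 15 include JA2, whose values are uncertain. It passed the filter only through EX at 12 h (mean 10.34 FPKM) and MT at 4 h (10.75 FPKM), where its differences from 0 h were 1.67 and 1.81. The medians are therefore not read as a result about the members. Between 12 h and 4 h, 0 members were called in EX (background 0.201%, 1 member at an unadjusted p under 0.05) and 0 in MT (0.554%, 2 members).

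**Figure D2:**
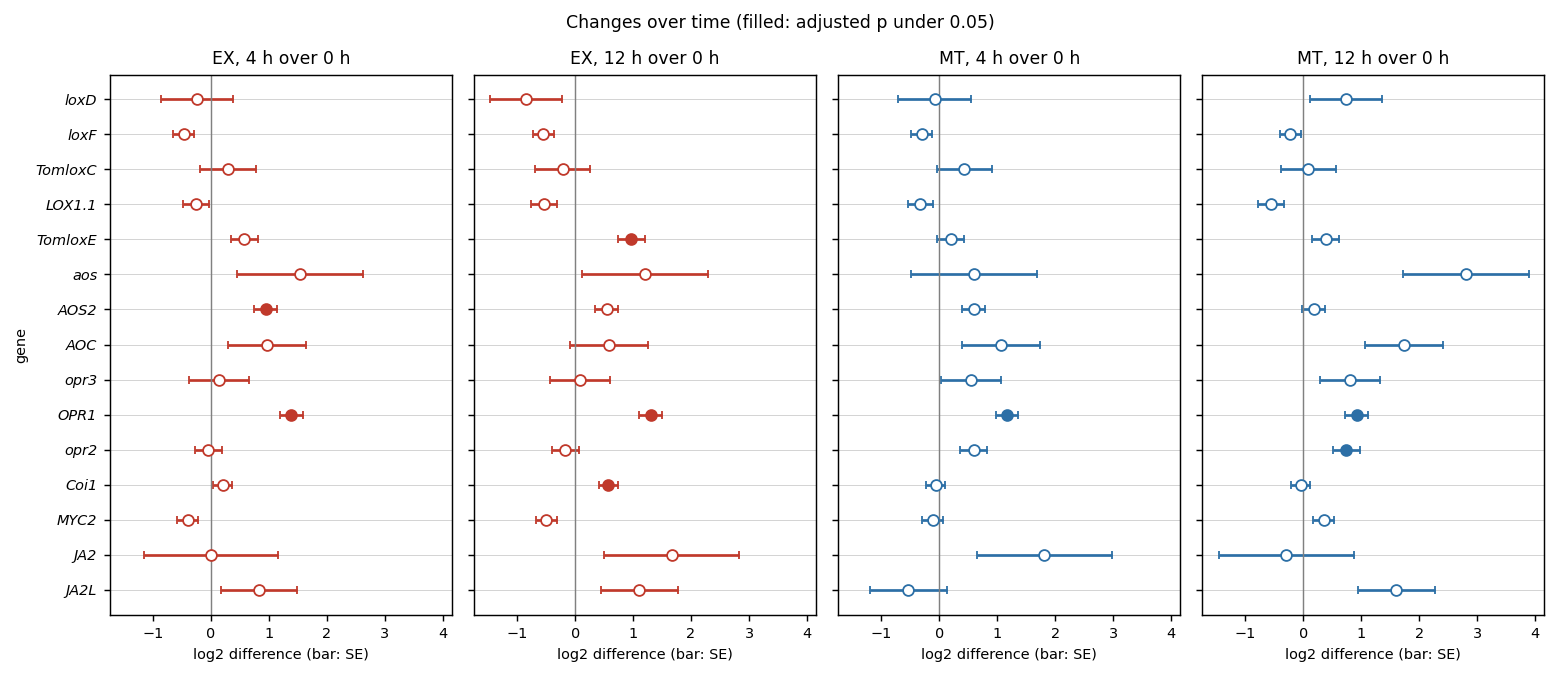
Log2 differences over 0 h of the 15 tested members, with bars for the standard error and filled symbols where limma's adjusted p was under 0.05, EX in red and MT in blue. OPR1 is filled in all 4 panels, AOS2, TomloxE, Coi1 and opr2 in 1 panel each, and the error bars of aos, AOC, loxD, JA2 and JA2L are several times as long as those of OPR1.

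Some marker genes of the tissue also changed in these comparisons. The 5 fruit ripening genes summed in EX to 54.13 to 81.05 FPKM at 4 h and 51.58 to 75.57 FPKM at 12 h, against 13.97 to 20.6 FPKM at 0 h. In MT they summed to 38.46 to 60.88 FPKM at 4 h and 52.21 to 70.71 FPKM at 12 h, against 9.84 to 35.92 FPKM at 0 h. The gene of that list that was called is Psy1, a phytoene synthase of carotenoid synthesis, and it was called in all 4 comparisons in which OPR1 was. Psy1 had 64.5, 46.8 and 40.7 FPKM at 4 h and 41.6, 65.6 and 55.8 FPKM at 12 h in EX, against 1.7, 2.27 and 3.17 FPKM at 0 h. In MT, Psy1 had 24.8, 47.0 and 29.0 FPKM at 4 h and 44.6, 57.6 and 57.0 FPKM at 12 h, against 2.08, 2.6 and 2.28 FPKM at 0 h. It rose by 3.93 and 4.03 in EX and by 3.33 and 4.02 in MT at 4 and 12 h (limma, adjusted p = 9.27e-08, 4.19e-08, 5.89e-07 and 7.55e-08). The other tested gene of that list, LeSPL-CNR, was not called, with differences of -0.182 and -0.631 in EX and -0.017 and -0.585 in MT. The rise of the summed fruit genes is thus that of Psy1. The mesophyll genes summed in EX to 67550 to 75720 FPKM at 12 h, against 67610 to 111100 FPKM at 0 h, and 4 of the 21 were called lower, namely CAB12, Cab-1D, CAB-10A and CAB6A, genes of chlorophyll-binding proteins, and CAB-10A kept its call without any 1 library. CAB6A was not called without library 1 or 3 of EX at 0 h or library 3 of EX at 12 h (adjusted p = 0.0565, 0.0582 and 0.0597), and CAB12 and Cab-1D were called only where library 2 of EX at 0 h was the one left out (otherwise 0.0623 to 0.178). In MT they summed to 49920 to 71010 FPKM at 4 h and 70450 to 78650 FPKM at 12 h, against 47420 to 82910 FPKM at 0 h, with 1 called lower at 4 h, and 2 called higher and 1 lower at 12 h. At that time CAB-10A fell by 1.07 and PsbQ, of photosystem II, rose by 0.68 in MT (limma, adjusted p = 0.0306 and 0.0221), calls that leaving out library 1 or 2 of 12 h, among others, ended (0.0825 and 0.106 for CAB-10A, 0.0657 and 0.0502 for PsbQ), and without the outlying MT pair PsbQ gave 0.50 (adjusted p = 0.0802). The 3 trichome genes summed in MT to 40.15 to 54.57 FPKM at 12 h, against 20.73 to 30.31 FPKM at 0 h. Most of that sum was MYC1, with 36.63 to 45.26 FPKM at 12 h and 15.73 to 28.81 FPKM at 0 h. MYC1 is counted below among the wound and jasmonate response genes too. In that comparison MTS1 (0.968) and SSTLE1 (-0.009) were not called (limma, adjusted p = 0.245 and 0.986). The part of these markers in the changes of the members was not tested.

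No member was called between the lines. EX against MT gave 0 called members at 0 h (background 3.17% of tested genes; 2 members at an unadjusted p under 0.05), 0 at 4 h (0.297%; 0 members) and 0 at 12 h (0.134%; 1 member). At 0 h, opr2 was at 2.24, 1.73 and 2.69 FPKM in EX and 0.450, 1.32 and 0.740 FPKM in MT, with no overlap and a difference of 0.83 ± 0.24 (SE; limma, adjusted p = 0.0647). Coi1 went the other way, with 21.1, 17.2 and 17.8 FPKM in EX and 28.0, 21.6 and 32.2 FPKM in MT, a difference of -0.51 ± 0.16 (SE; limma, adjusted p = 0.0864). The libraries were again apart, and both genes were called when library 2 of MT at 0 h was left out, opr2 with 1.01 (adjusted p = 0.0147) and Coi1 with -0.66 (adjusted p = 0.0133). Leaving out that library also raised the calls over all tested genes from 567 to 3397. These 2 calls are therefore not read as a result about the members. At 12 h, MYC2 was at 41.4, 44.7 and 35.2 FPKM in EX and 64.0, 60.2 and 52.9 FPKM in MT, all EX libraries below all MT libraries, with a difference of -0.54 ± 0.18 (SE; limma, adjusted p = 1.0). For the genes with the widest scatter the error leaves room for large differences either way: for aos the EX minus MT difference was 0.26 ± 1.09 (SE; limma, adjusted p = 0.908) at 0 h, 1.19 ± 1.09 (SE; limma, adjusted p = 0.631) at 4 h and -1.34 ± 1.09 (SE; limma, adjusted p = 1.0) at 12 h. All 21 mesophyll markers had a positive EX minus MT difference at 0 h and at 4 h, with 1 called at 0 h, CAB5, whose call was lost without library 1 or 3 of either line (adjusted p = 0.0925 to 0.178) and with the replicate block (0.0502). At 4 h the outlying library 1 of MT had a mesophyll sum of 49920 FPKM, against 65480 and 71010 FPKM in the other MT libraries. Its CAB5 was 123.69 FPKM at 0 h, where the others had 379.45 and 325.5 FPKM. The count of 21 is not given without the outlying MT pair. At 12 h 3 of the 21 markers had a positive difference, the median was -0.18, and 0 were called. Their part in the differences of the members was not tested.

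The change over time was also not called as different between EX and MT for any member. The interaction of line and time gave 0 members at 4 h (background 0.101%; 0 members at an unadjusted p under 0.05) and 0 at 12 h (0.0224%; 3 members). Those 3 were MYC2, whose change from 0 to 12 h differed by -0.85 ± 0.26 (SE; limma, adjusted p = 0.209) between EX and MT, opr2 with -0.92 ± 0.33 (SE; limma, adjusted p = 0.238) and Coi1 with 0.62 ± 0.23 (SE; limma, adjusted p = 0.24). The median of all tested genes in this interaction was 0.126, and 0.02 after median-of-ratios scaling, so that relative to all genes the difference of Coi1 is smaller and those of MYC2 and opr2 are larger in size. Coi1 was called at 12 h when library 2 of MT at 0 h was left out (0.77, adjusted p = 0.0424). The calls over all genes in this interaction ran from 2 to 1516 across the alternatives, against 4 in the main fit. That call of Coi1 is therefore not read as a result. Although OPR1 was called at both times in both lines, its interactions were 0.22 ± 0.28 (SE; limma, adjusted p = 0.941) at 4 h and 0.38 ± 0.28 (SE; limma, adjusted p = 0.478) at 12 h.

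**Figure D3:**
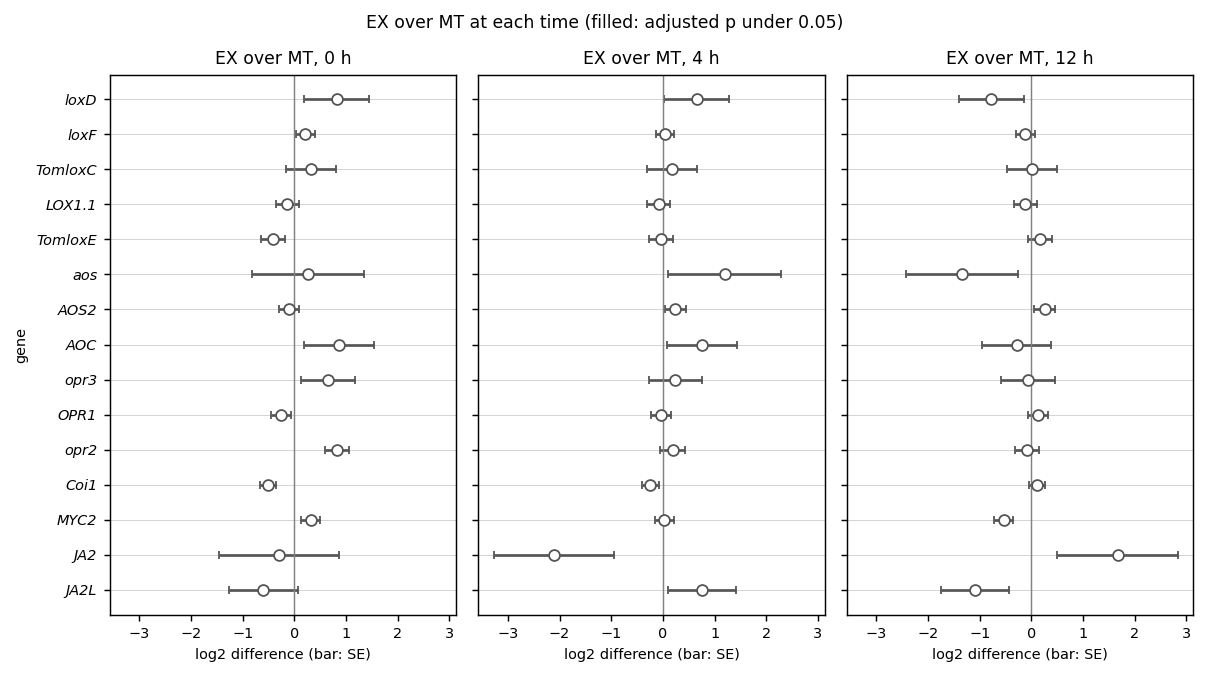
Log2 difference of EX over MT for the 15 tested members at 0, 4 and 12 h, with bars for the standard error. No symbol is filled, since no member reached an adjusted p under 0.05, and opr2 and Coi1 at 0 h and MYC2 at 12 h are farthest from 0 relative to their error.

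The widest differences of the pathway lay between libraries of the same group, and the core synthesis genes shared them. This was noticed after the values had been seen and is given as a description. AOC was highest in library 2 of EX at 0 h, library 3 of EX at 4 h, library 1 of EX at 12 h, and, in MT, library 2 at 0 h, library 1 at 4 h and library 1 at 12 h. In 6 of 6 groups loxD, aos and opr3 were highest in that same library, and JA2L in 5. By their names, these genes belong to the lipoxygenase, AOS, AOC and OPR3 steps of jasmonate synthesis, with JA2L a NAC factor. Of all 17870 tested genes, 259 (1.45%) were highest in the AOC library in all 6 groups and 1049 (5.87%) in at least 5. OPR1 and Coi1 were highest there in 0 groups, TomloxC in 1, TomloxE, opr2 and JA2 in 2, MYC2, loxF and LOX1.1 in 3, and AOS2 in 4.

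The pooled standard deviation within groups, on the log2 scale, was 1.49 for aos, 0.92 for AOC, 0.9 for JA2L, 0.85 for loxD and 0.71 for opr3, where the median of tested genes was 0.24. These values rank between the 95.9 and 99.9 percentiles of all tested genes. By contrast it was 0.25 for OPR1 and AOS2, 0.23 for MYC2 and loxF, and 0.2 for Coi1, near that median. Other genes that scattered widely followed the AOC library to differing degrees. TomloxC, at 0.65, was highest in that library in 1 group. Among wound and jasmonate response genes, mcpi (0.76) and PIIF (0.7) were highest there in 1 group. TD2 (0.6) and ARG1 (0.59) were so in 2 groups, ARG2 (0.81) and PPO (0.72) in 3, and LAPA1 (0.83) in 5, as many as JA2L. Among genes that supply precursors or branch off the pathway, Acx1A (0.5), Fad7 (0.34) and DES (0.31) were so in 5 groups. HPL (0.25) and alpha-DOX2 (0.19) were so in 1. The JAZ genes that RefSeq names share the scatter. JAZ repressor genes are themselves induced by jasmonate through MYC2. SLJAZ3 (chromosome 3, 70102530 to 70104850, minus strand) had 195, 659 and 55.9 FPKM at 0 h, 106, 162 and 257 FPKM at 4 h, and 262, 85.0 and 101 FPKM at 12 h in EX. In MT, SLJAZ3 had 192, 301 and 69.5 FPKM at 0 h, 319.7, 80.2 and 109 FPKM at 4 h, and 435, 352 and 180.4 FPKM at 12 h. It was highest in the AOC library in 6 of 6 groups, with a pooled standard deviation of 1.08. JAZ2 (chromosome 12, 2502555 to 2504617, plus strand) had 106, 317 and 32.1 FPKM at 0 h, 65.6, 62.2 and 177 FPKM at 4 h, and 137, 77.1 and 44.7 FPKM at 12 h in EX. In MT, JAZ2 had 132, 128 and 25.1 FPKM at 0 h, 128, 42.4 and 42.2 FPKM at 4 h, and 187, 134 and 92.1 FPKM at 12 h. It was highest there in 5 groups, with a pooled standard deviation of 1.07, and neither JAZ gene was called in any of the 11 comparisons.

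The same libraries lie at one end of a wider pattern. On the third principal component of all tested genes (12.2% of the variance) the library with the highest AOC had the lowest score of its group in 6 of 6 groups, for instance -47.8 within EX at 0 h, where the others had -12.8 and -1.5 (the sign of a component is arbitrary). The total FPKM of that library was below both others of its group in EX at 0 h and 4 h, above both in EX at 12 h and in MT at 0 h and 4 h, and between them in MT at 12 h. Its mesophyll sum was below both others in EX at 0 h and 4 h and in MT at 4 h, above both in EX at 12 h and MT at 0 h, and between them in MT at 12 h. Jasmonate levels are not among these data. The part of jasmonate, library total and mesophyll level in this scatter was not tested.

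**Figure D4:**
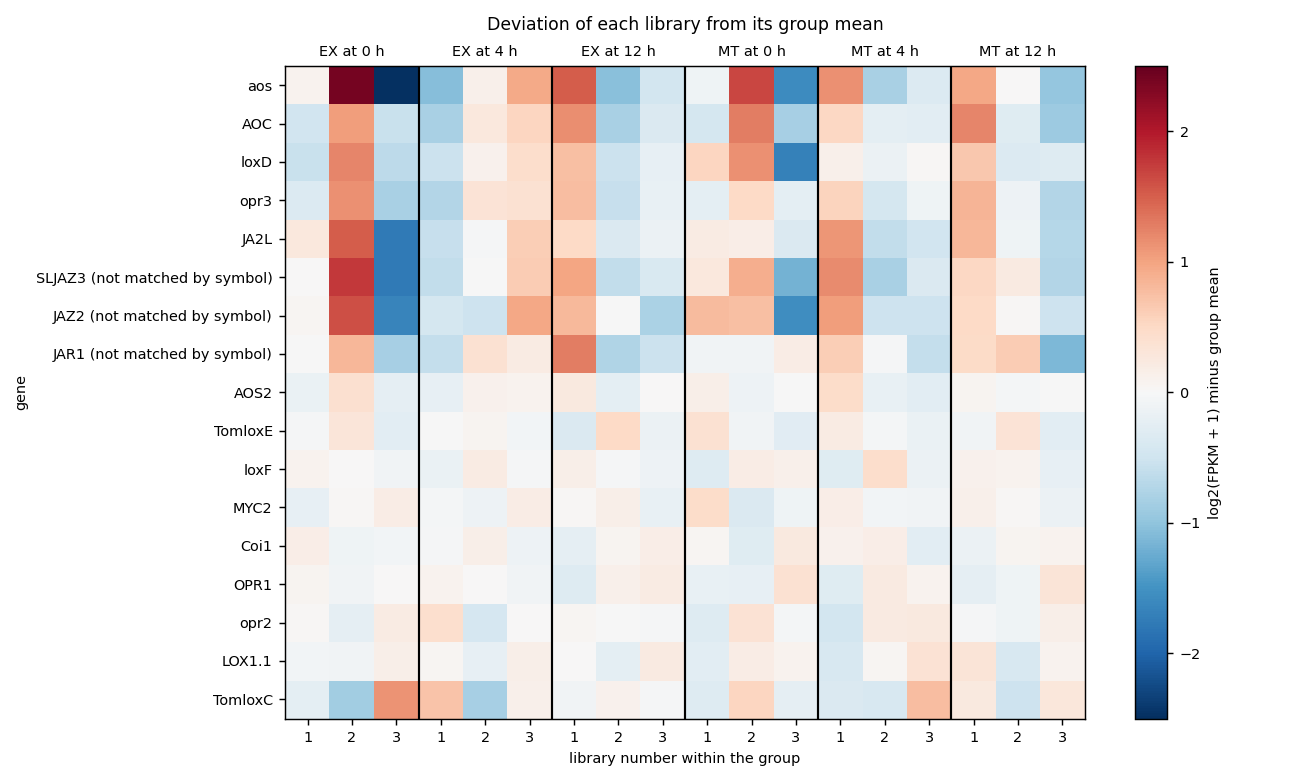
Deviation of each library from the mean of its group on the log2(FPKM + 1) scale, red above and blue below, for 14 members and the 3 genes named by RefSeq; JA2 and LOXB, at or near 0 in most libraries, are left out. The rows of aos, AOC, loxD, opr3, JA2L, SLJAZ3 and JAZ2 are red in the same library of nearly every group, and those of OPR1, Coi1 and MYC2 are pale.

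Around the members, JAR1, the enzyme that in Arabidopsis conjugates jasmonic acid to isoleucine, was called once. In the row that RefSeq names JAR1 (chromosome 10, 3834486 to 3905560, minus strand), EX libraries had 18.4, 33.5 and 9.96 FPKM at 0 h, 35.1, 70.5 and 62.1 FPKM at 4 h, and 186, 44.6 and 51.3 FPKM at 12 h. In MT, JAR1 had 24.2, 24.2 and 29.4 FPKM at 0 h, 77.6, 49.5 and 32.8 FPKM at 4 h, and 94.4, 105 and 30.2 FPKM at 12 h. At 12 h in EX it was at 93.8 ± 79.5 FPKM, against 20.6 ± 11.9 FPKM at 0 h (SD, n = 3 each), and rose by 1.98 ± 0.57 (SE; limma, adjusted p = 0.0257). In both lines all libraries of 4 h and 12 h lay above those of 0 h. The call was lost without library 1 or 3 of EX at 0 h (adjusted p = 0.0727 and 0.122) and without library 1 of EX at 12 h (0.122), and it was 0.0146 to 0.122 over all alternatives.

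Of 6 genes that supply precursors or branch off the pathway, 5 were tested. In EX 1 was higher at 12 h than at 0 h and 0 were lower, where 16.6% of all tested genes were called in either direction and 10.1% as higher. In MT 1 was lower at 4 h and 1 at 12 h. The backgrounds there were 14.2% and 21.2% in either direction, and 7.43% and 13.2% as lower. So 1 of 5 is near the background in either direction and above that of 1 direction, and it rests on 1 gene. The gene higher in EX was DES, divinyl ether synthase, which uses 9-lipoxygenase products. It is named although its level is below the 5 FPKM asked of other such genes, and was chosen after its values were seen. DES also passed the filter of 1 FPKM only through EX at 12 h (mean 2.14 FPKM), the group in which it was called higher. In the other groups its mean was at most 0.36 FPKM. Its call is therefore no support for a change of the precursor genes. DES had 3.13, 0.740 and 2.55 FPKM in EX at 12 h, against 0.0400, 0.120 and 0 FPKM in EX at 0 h, a rise of 1.48 ± 0.25 (SE; limma, adjusted p = 0.000963). Its call held under each alternative that kept the gene, with adjusted p of 2e-05 to 0.0289, and the filter at 5 FPKM removes it. The gene lower in MT was alpha-DOX2, an alpha-dioxygenase that oxidises fatty acids at another carbon, with 179, 177 and 178 FPKM at 0 h, 94.4, 136 and 124 FPKM at 4 h, and 111, 108 and 138 FPKM at 12 h. It fell by 0.60 on the log2 scale at 4 h and by 0.58 at 12 h in MT (limma, adjusted p = 0.0177 and 0.0165). The 4 h call was lost without library 1 of MT at 4 h (0.0709), and the 12 h call when library 1 or 2 of that time was left out (0.0651 and 0.0692). Without the outlying MT pair the 4 h difference was -0.45 (adjusted p = 0.119), and over all alternatives the adjusted p was 0.0119 to 0.184 at 4 h and 0.0144 to 0.0692 at 12 h. In EX, alpha-DOX2 had 165, 159.8 and 162 FPKM at 0 h, 122.99, 103 and 127 FPKM at 4 h, and 104, 138 and 149 FPKM at 12 h, also without overlap with 0 h, and did not pass.

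Of 13 genes of the wound and jasmonate response, 12 were tested. At 0 h 2 were higher in EX than in MT and 0 lower, where 3.17% of all tested genes were called. Over time 0 were called in EX at 4 h (background 11.3%; 0 at an unadjusted p under 0.05) and at 12 h (16.6%; 2). In MT 1 was higher at 4 h (6.73% of all tested genes called higher), and 4 were higher (8%) and 1 lower (13.2%) at 12 h. The metallocarboxypeptidase inhibitor gene mcpi, a wound-induced defence gene, was called in all 3 of these. In EX, mcpi had 157, 139 and 239.7 FPKM at 0 h, 77.2, 157 and 148 FPKM at 4 h, and 146, 145 and 72.3 FPKM at 12 h. In MT, it had 13.4, 6.37 and 4.04 FPKM at 0 h, 174, 35.02 and 211 FPKM at 4 h, and 33.8, 47.4 and 33.0 FPKM at 12 h. Its lowest libraries were those of MT at 0 h, and the highest MT values were those of 2 libraries at 4 h. At 0 h mcpi was higher in EX by 4.43 ± 0.56 (SE; limma, adjusted p = 0.000905), and in MT it rose by 3.76 ± 0.56 (SE; limma, adjusted p = 0.000362) at 4 h and 2.25 ± 0.56 (SE; limma, adjusted p = 0.0107) at 12 h. The difference in its 4 h change between EX and MT was -4.27 ± 0.79 (SE; limma, adjusted p = 0.0604). It lies on chromosome 7 (1989154 to 1990602), the chromosome of opr3. TD2, a threonine deaminase that stays active in the insect gut, was at 15.2, 24.7 and 16.6 FPKM in EX, against 3.26, 3.5 and 7.52 FPKM in MT at 0 h, higher by 1.83 ± 0.44 (SE; limma, adjusted p = 0.0416). Leaving out any library of those groups except library 2 of MT ended that call (adjusted p = 0.0556 to 0.151), and without the outlying MT pair the difference was 1.65 (adjusted p = 0.109). The call was also lost with no filter on low values (0.0511), and over all alternatives the adjusted p was 0.0335 to 0.198.

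In MT at 12 h the called genes beside mcpi were LAPA1, ARG2 and MYC1, all higher, and LAPA2, lower. LAPA1, a wound-induced leucine aminopeptidase, had 43.2, 20.9 and 12.0 FPKM at 12 h, against 2.64, 4.03 and 1.01 FPKM at 0 h in MT, and rose by 2.81 ± 0.61 (SE; limma, adjusted p = 0.00496). In EX the same gene had 29.8, 20.8 and 11.2 FPKM at 12 h, against 5.26, 13.7 and 7.48 FPKM at 0 h, and was not called. ARG2, the jasmonate-induced arginase, had 52.3, 64.6 and 22.6 FPKM at 12 h, against 15.1, 12.4 and 8.65 FPKM at 0 h in MT, and rose by 1.77 ± 0.60 (SE; limma, adjusted p = 0.0461). That call was lost without library 1, 2 or 3 of MT at 0 h (adjusted p = 0.0715, 0.0639 and 0.135) or library 1 or 2 of MT at 12 h (0.134 and 0.155). It was also lost without the outlying MT pair (1.94, adjusted p = 0.0536), with the replicate block (0.0519) and with no filter on low values (0.0647), and over all alternatives the adjusted p was 0.0291 to 0.155. The neighbouring gene ARG1 (6.02 to 44.0 FPKM) is related to it, so reads could have been split between them. MYC1, a bHLH factor of glandular trichomes, had 45.3, 37.5 and 36.6 FPKM at 12 h, against 28.8, 15.7 and 28.5 FPKM at 0 h in MT, and rose by 0.73 ± 0.19 (SE; limma, adjusted p = 0.0123). It is also 1 of the 3 trichome markers, and its call was lost without library 1 of MT at 12 h (0.0599), with 0.00641 to 0.116 over all alternatives. LAPA2, a second aminopeptidase gene beside LAPA1 on chromosome 12, had 77.9, 80.3 and 74.4 FPKM at 12 h, against 147, 96.6 and 113 FPKM at 0 h in MT, and its log2 difference was -0.59 ± 0.16 (SE; limma, adjusted p = 0.0185). That call was lost without library 1 of MT at 0 h (0.0886), or library 1 or 3 of MT at 12 h (0.0531 and 0.0557). The difference was -0.43 (adjusted p = 0.0545) when the outlying MT pair was dropped, with 0.00564 to 0.0886 over all alternatives. None of these genes was called in the interaction of line and time, so a difference between EX and MT in their time course is not shown.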

How the data were processed

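The authors deposited FPKM values for each gene in each library, with 2 decimals, per the file headers; 18 repeat FPKM columns with identical values were set aside. The log2 ratios and p-values of group comparisons in the deposited table, made by the authors in a way not given in the sources used here, were not used. DESeq2 1.4.5, RSEM 1.2.12, Bowtie2 2.2.5 and HISAT2 2.0.4 are listed in the submitters' processing notes without a role, and neither a genome build nor a strand setting is. Names were looked up in a RefSeq table of assembly SLM_r2.1, which held 21649 of the 23348 identifiers. No genome or sequence was used here.

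FPKM values were transformed to log2(FPKM + 1) and fitted with limma 3.58.1 in R 4.3.3 over all 18 libraries, with 6 group means and a mean-variance trend (prior degrees of freedom 3.18). The two-sided p-values were adjusted by the Benjamini-Hochberg method in each of 11 comparisons, over the 17870 genes that averaged 1 FPKM or more in some group. The fit was first tested on simulated data with known changes. The members and gene lists were chosen with earlier results of these data known. Library values are given for members called, or with a group mean of 20 FPKM or more, and for MYC2, Coi1 and JAR1; other pathway genes and markers are named if called, at 5 FPKM or more in the higher group and without overlap between groups, at most 6 per comparison for either kind.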

Additional observations from a re-analysis of the deposited data

How the results depend on the processing

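The counts of members called were recomputed with a pseudocount of 0.1, no filter, a filter at 5 FPKM, median-of-ratios scaling, the replicate block, robust moderation, without library 1 of MT at 0 h and at 4 h, without each library in turn and, chosen after seeing the data, in fits restricted to the libraries compared. No difference named as called reversed where it was recomputed (DES has no value with the filter at 5 FPKM). For EX at 12 h against 0 h the count of 3 became 5 with scaling (MYC2 and loxF lower) and 6 without the pair of MT libraries (AOS2, MYC2 and loxF added), and was 1 to 3 without each library, 1 being OPR1 without library 3 of EX at 0 h. For MT at 4 h against 0 h the count of 1 was 0 in the restricted fit and 1 to 2 without each library. For MT at 12 h against 0 h the count of 2 was 1 with the filter at 5 FPKM, which removes opr2, 0 in the restricted fit, and 1 to 4 without each library, 4 (AOC, OPR1, aos and opr2) without library 2 of MT at 0 h. Without that library EX against MT at 0 h gave 2 members and the interaction at 12 h gave 1, while every other library left out gave 0. The calls over all genes shifted between these settings too, as given below, so the member counts alone are not read as a result. The cause of these shifts was not tested. No label pairs same-numbered libraries, and their deviations correlated over 0.1 in 21 of 45 cases (-0.417 to 0.568). All 3 numbers were over 0.1 for EX at 12 h with MT at 12 h (0.568, 0.231 and 0.405) and with MT at 4 h (0.256, 0.229 and 0.253), while in the other group pairs they were not, and a library correlated best with its own number in 32 of 90. With the replicate block 0 members were called between EX and MT at 12 h, as without it, and the counts were 2 and 4 in EX and 1 and 2 in MT at 4 and 12 h against 0 h. Over all genes, called counts across these settings ran from 23 to 3397 for EX against MT at 0 h (567 as reported). The highest, 3397, came from leaving out library 2 of MT at 0 h. The counts ran from 1742 to 4010 for EX at 12 h (2972), from 507 to 3125 for MT at 4 h (2531) and from 1488 to 5136 for MT at 12 h (3786). For the interaction at 12 h they ran from 2 to 1516 (4). FPKM without counts limits what can be said of the genes under about 2 FPKM.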
